A study of Mus musculus with 8 samples.

Results

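Integrins and the proteins of focal adhesions were followed as a set of 40 genes, given by name, among the 55487 genes of a mouse count table. They comprise 11 integrin alpha subunits, 4 beta subunits, 11 activators and actin links, 7 kinases and signalling adaptors, 3 proteins of the ILK, PINCH and parvin complex, and 4 proteins of the zyxin and VASP group. All 40 were found in the table by Ensembl identifier, and 37 had enough counts to be tested. RNA came from E14-Tg2a, a mouse embryonic stem cell line, and was taken on day 6 of differentiation in serum-free medium towards precardiac mesoderm. The parental line, labelled WT, gave 4 libraries, and the derived line 4D, labelled Tbx1-/-, gave 4. The mutated gene, Tbx1, codes for a transcription factor of the T-box family and is among the genes deleted in DiGeorge syndrome. Both lines went through the same differentiation, and no drug or other agent is labelled for any of these libraries. Line 4D is the single mutant line, so the genotype and other properties of that line cannot be told apart.

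Integrins are membrane receptors built from an alpha and a beta subunit, and the pairing sets which matrix protein is bound. Talin and kindlin bind the tail of the beta subunit and switch the receptor on. Vinculin, tensins, alpha-actinins and filamin tie it to actin, and focal adhesion kinase, Src, p130Cas and paxillin pass on the signal. In the embryo these adhesions hold mesoderm to fibronectin, laminin and collagen while it migrates.

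QuantSeq reads only the 3′ ends of polyadenylated RNA, and a count therefore does not grow with transcript length. CPM below means counts set to the same library total with edgeR's trimmed-mean (TMM) factors, and values were not divided by length. Library totals lay between 3803561 and 6293907 counts. The 40 genes took 0.277% to 0.366% of them. Tbx1 itself had 39, 65, 38 and 22 counts in parental libraries 1 to 4 and 3, 0, 1 and 0 counts in Tbx1-/- libraries 1 to 4, at least 11.7-fold lower in the mutant mean with its libraries set to a floor of 3 counts each. All 12 markers fixed for precardiac mesoderm and cardiac progenitors passed the filter on low counts, with summed levels of 1405 to 1781 CPM in parental and 1419 to 1648 CPM in Tbx1-/- libraries. Within that list Gata6 was called higher in the mutant line (log2 difference 0.72, edgeR adjusted p = 0.00516), and 7 of the 12 had an unadjusted p under 0.05, 3 higher and 4 lower. Hand2 was higher without overlap between the lines but did not pass, at 0.40 (edgeR adjusted p = 0.0513). Isl1 and Hand1 were lower without overlap and did not pass either, at -0.67 and -0.39. Tbx1-/- library 4 stood apart from the rest. Its log2 CPM correlated with other libraries at 0.857 to 0.881 across genes, which are not independent replicates, where pairs among the other 7 libraries reached at least 0.920. Tbx1-/- library 4 also had the lowest total, 3803561 counts, and 14850 genes with a count, against 18213 to 19134 in the other 7. Its most abundant gene took 17.7% of its counts, against at most 12.985% in the other 7. What part these properties play in its levels of single genes was not tested. In bulk RNA, fewer cells of a type and less RNA per cell cannot be told apart.

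A single gene of the set, Tns1, differed between the lines past the threshold, and it was higher in Tbx1-/- cells. That is 1 of 37 tested genes with an adjusted p under 0.05 in edgeR's quasi-likelihood test, beside 1.42% of all 13280 genes tested. Over all genes 99 were higher and 89 lower, and the split was 100 to 57 when libraries were scaled by size alone and 112 to 65 when the most abundant gene was also left out of those totals. An unadjusted p under 0.05 was found for 6 of the 37, Tns1, Tns3, Lims1, Itga1 and Tln2 with higher and Actn1 with lower levels in the mutant line, beside 11.9% of all genes. Parental and Tbx1-/- libraries did not overlap for 5 of the 37, beside 7.52% of all genes. The fold change was above 0 on the log2 scale for 26 of the 37, and the median was 0.17, against 0.00 over all genes tested. That median depended on the libraries and settings. Over 18 alternative analyses it ran from 0.03 without Tbx1-/- library 1 to 0.21 without Tbx1-/- library 2. It was 0.07 without parental library 3, 0.08 after thinning to the smallest library and 0.09 with limma-voom. The plot of fold changes shows most of the set close to 0 with narrow intervals and the widest intervals among the low genes.

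**Figure D1:**
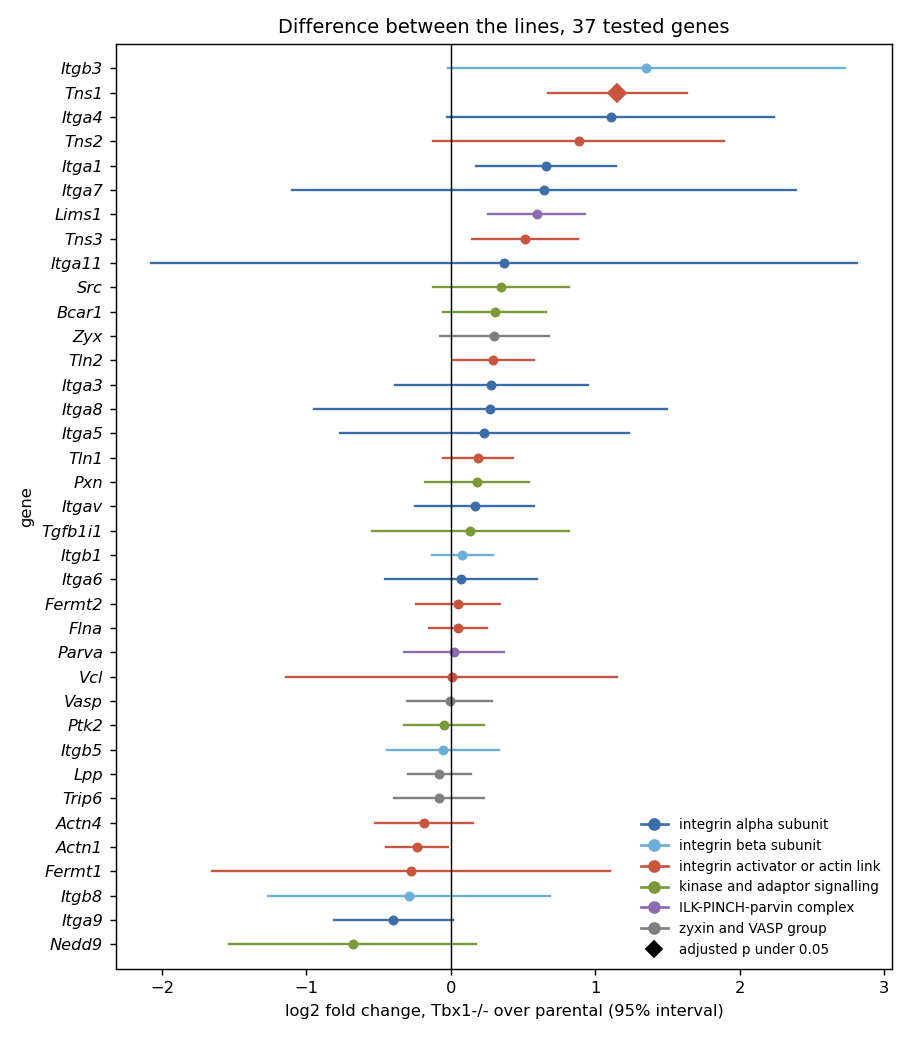
Log2 fold change of Tbx1-/- over parental cells (horizontal axis) for each of the 37 tested genes (vertical axis), with 95% intervals from the edgeR fit (n = 4 libraries per line); colours give the role and the diamond marks an adjusted p under 0.05. Tns1 is the 1 diamond, at 1.15, and Itgb3 lies higher at 1.36 with an interval that includes 0.

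For 24 of the 36 genes that were not called, the 95% interval of the difference lay within a 2-fold change in either direction, and for 15 of them within 1.5-fold. These intervals belong to each gene on its own and are not adjusted for the number of genes. The other 12, whose intervals reached 2-fold, included all of the tested genes with a mean under 10 CPM, such as Itga7 and Fermt1, and also Itga1 and Itga8. The 10 genes with a mean of at least 100 CPM had log2 differences of -0.23 to 0.29.

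The most abundant chains were Itgb1 among the beta and Itga6 among the alpha subunits. Itgb1, the beta subunit that pairs with most alpha chains (chromosome 8, 128685654 to 128733200, plus strand, GRCm38), had 418, 357, 357 and 350.4 CPM in parental libraries 1 to 4 and 424, 399, 387 and 357 CPM in Tbx1-/- libraries 1 to 4. The lines overlapped, and library 1 was the highest in each. The log2 difference was 0.08 ± 0.10 (SE), with a 95% interval of -0.13 to 0.29 and an edgeR adjusted p of 0.818. Itgb1 made up 76.3% to 82.0% of beta subunit CPM in the parental and 77.8% to 81.7% in the Tbx1-/- libraries.

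Itga6, a laminin receptor subunit, varied more among libraries than between lines. It had 167, 109, 73.6 and 62.4 CPM in parental libraries 1 to 4 and 138, 106, 122 and 65.7 CPM in Tbx1-/- libraries 1 to 4. Parental library 1 was more than 2-fold above parental libraries 3 and 4, and the lines overlapped throughout. The log2 difference was 0.07 ± 0.25 (SE, edgeR adjusted p = 0.955), and it changed sign in 3 of 8 fits that each left out 1 library. The other laminin-binding alpha chains were lower, Itga3 at 9.10 to 23.9 CPM and Itga7 at 0.359 to 3.27 CPM over all 8 libraries.

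Itga1, which with beta 1 forms a collagen receptor (chromosome 13, 114953096 to 115101964, minus strand), had 56.0, 43.2, 46.6 and 24.2 CPM in parental libraries 1 to 4. Tbx1-/- libraries 1 to 4 had 95.2, 61.0, 53.9 and 58.6 CPM. Tbx1-/- library 1 was the highest and parental library 4 the lowest, and the lines overlapped only in that parental library 1 exceeded Tbx1-/- library 3. The mean was 42.5 ± 13.3 CPM in parental and 67.2 ± 18.9 CPM in Tbx1-/- libraries (SD, n = 4), a log2 difference of 0.66 ± 0.23 (SE) with an edgeR adjusted p of 0.210. It passed the threshold in 1 of 18 alternative analyses, the one without a filter on low counts (adjusted p = 0.0227). The other collagen-binding chains were scarce. Itga2 had at most 19 counts in a library and fell below the filter, and Itga11 was at 0 to 4.95 CPM.

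Chains that bind the RGD motif of fibronectin and vitronectin gave no call. Itgav, which pairs with several beta chains, had a narrow range of 28.3 to 36.2 CPM in parental and 31.4 to 48.7 CPM in Tbx1-/- libraries. Itga5, the main fibronectin receptor chain, lay between 4.63 and 11.8 CPM in 7 libraries and at 18.7 CPM in Tbx1-/- library 4. Itga8 had 1 count in Tbx1-/- library 4, or 0.275 CPM, against 5.90 to 17.7 CPM in the other 7. Both extremes thus came from the library that stood apart.

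The related chains Itga4 and Itga9 had differences of opposite sign, neither past the threshold. Itga9 had 42.9, 31.8, 38.0 and 31.4 CPM in parental libraries 1 to 4 and 31.4, 27.2, 25.2 and 25.3 CPM in Tbx1-/- libraries 1 to 4. Tbx1-/- library 1 just reached the lowest parental library, and the log2 difference was -0.40 ± 0.20 (SE, edgeR adjusted p = 0.442). As a share of all alpha chain CPM, Itga9 was 11.9%, 12.0%, 17.3% and 17.2% in parental libraries 1 to 4. In Tbx1-/- libraries 1 to 4 it was 8.73%, 9.69%, 8.88% and 9.80%, without overlap. This share was singled out after the values of all 11 alpha chains were seen and carries no test. Itga4, a receptor chain for fibronectin and Vcam1, had 10.9, 3.41, 1.28 and 3.16 CPM in parental libraries 1 to 4 and 11.9, 10.9, 10.9 and 6.60 CPM in Tbx1-/- libraries 1 to 4. Parental library 1 was as high as the mutant libraries, and the log2 difference was 1.11 ± 0.54 (SE, edgeR adjusted p = 0.435).

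**Figure D2:**
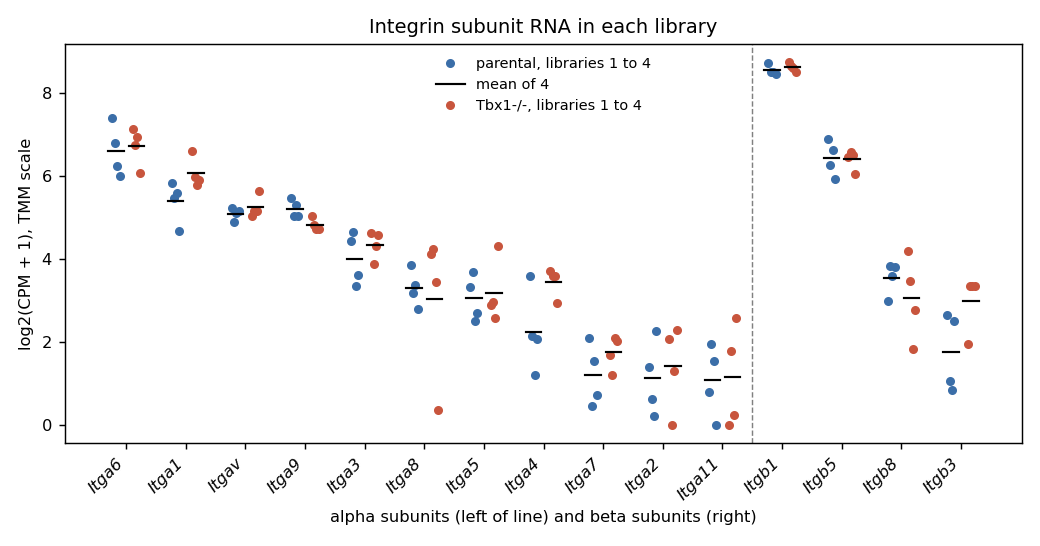
Level of each integrin subunit as log2(CPM + 1) on the vertical axis, with each point a library and black bars the mean of 4 libraries; subunits are on the horizontal axis. Itgb1 and Itga6 are the highest of their kind, and Itga8 in a single Tbx1-/- library falls far below its other 3.

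**Figure D3:**
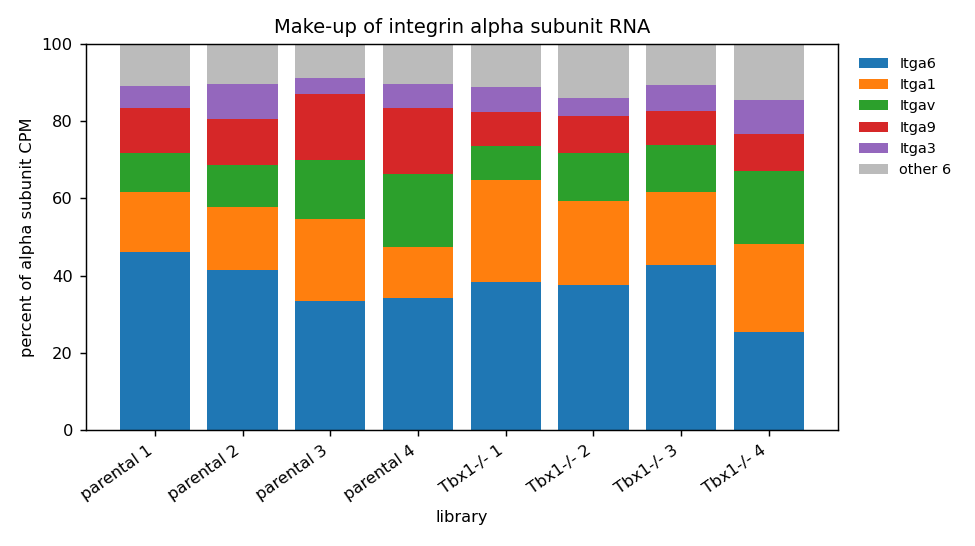
Percent of the summed CPM of the 11 alpha subunits (vertical axis) that each subunit took in each of the 8 libraries (horizontal axis). Itga6 held 25.5% to 46.1%, and the Itga9 segment is smaller in all 4 Tbx1-/- libraries, at 8.73% to 9.80%, than in the parental libraries, at 11.9% to 17.3%.

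Among the other beta chains, Itgb5, which pairs with alpha v, was the next most abundant at 59.2 to 118 CPM in parental and 65.2 to 94.6 CPM in Tbx1-/- libraries. Itgb3, the vitronectin and fibrinogen receptor chain known from platelets, had 5.27, 1.08, 0.798 and 4.64 CPM in parental libraries 1 to 4 and 2.86, 9.15, 9.08 and 9.07 CPM in Tbx1-/- libraries 1 to 4. The other mutant libraries, 2 to 4, were above every parental library and Tbx1-/- library 1 was within the parental range. The log2 difference of 1.36 ± 0.65 (SE) was the largest of the 37 genes, but its interval ran from -0.02 to 2.73 and the edgeR adjusted p was 0.429. Itgb8, which with alpha v activates latent TGF-beta, spread from 2.54 to 17.3 CPM over the Tbx1-/- libraries, wider than its whole parental range of 6.91 to 13.1 CPM.

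The tensins link the beta chain tail to actin and mark the mature, fibrillar form of the adhesion. In all 3 tensins of the set every mutant library was above every parental library, and Tns1 passed the test. Tns4, a tensin outside the set, had at most 12 counts in a library and fell below the filter. Tns1 (ENSMUSG00000055322.16, protein coding, chromosome 1, 73910231 to 74124449, minus strand) had 31.3, 25.5, 40.9 and 52.3 CPM in parental libraries 1 to 4, from 172, 142, 256 and 248 counts. Tbx1-/- libraries 1 to 4 had 74.4, 54.7, 91.7 and 112 CPM, from 443, 251, 505 and 409 counts. Every mutant library was above every parental library, the nearest being parental library 4 and Tbx1-/- library 2. The mean rose from 37.5 ± 11.7 to 83.3 ± 24.6 CPM (SD, n = 4), a log2 fold change of 1.15 ± 0.23 (SE, 95% interval 0.67 to 1.64) with an edgeR adjusted p of 0.0124. The fold change stayed between 0.98 and 1.35 over 18 alternative analyses. The call was lost when parental library 1, parental library 2 or Tbx1-/- library 3 was left out, with adjusted p of 0.0501, 0.0692 and 0.0537. Without Tbx1-/- library 4 the fold change was 0.98 and the adjusted p 0.0279.

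Tns3, another tensin of the adhesions, had 30.5, 33.2, 31.6 and 39.2 CPM in parental libraries 1 to 4 and 54.1, 41.0, 48.5 and 48.4 CPM in Tbx1-/- libraries 1 to 4. The lines did not overlap, and the log2 difference was 0.51 ± 0.18 (SE, edgeR adjusted p = 0.199). Tns2 was low, with 6.73, 6.64, 6.70 and 1.26 CPM in parental libraries 1 to 4 and 10.8, 8.06, 13.1 and 7.70 CPM in Tbx1-/- libraries 1 to 4. Its lines did not overlap either, but parental library 4 had 6 counts, and the log2 difference of 0.89 ± 0.48 (SE) had an edgeR adjusted p of 0.503. Summed over the 3 tensins, which were grouped after their values were seen, the level was 65.3 to 92.7 CPM in parental and 104 to 169 CPM in Tbx1-/- libraries. These 3 and Lims1 were the genes of the set with every mutant library above every parental one, 4 of 37 beside 3.49% of all genes.

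Markers of other cell types also differed between the lines. The 12 endothelial and blood markers summed to 491 to 783 CPM in parental and 1057 to 1733 CPM in Tbx1-/- libraries. Of the 11 tested, 2 were called higher, the globins Hba-x and Hbb-bh1, beside 0.745% of all genes called higher. The gap in the sum lay largely in these 2 globins. Hba-x was at 27.9 to 35.5 CPM in parental and 171 to 357 CPM in Tbx1-/- libraries. Hbb-bh1 was at 72.8 to 123 CPM and 366 to 480 CPM. The other tested markers were not called, with log2 differences from -0.27 for Pecam1 to 0.76 for Tal1. Of the 12 mesenchyme and smooth muscle markers 10 were tested and 3 called higher, Col3a1, Twist1 and Postn, beside the same 0.745% of all genes. The log2 difference was above 0 for 7 of the 10. The smooth muscle genes Acta2, Tagln and Cnn1 went the other way, at -0.45, -0.72 and -1.47, and were not called. The sum of that list overlapped, at 666 to 1732 CPM and 1327 to 1776 CPM, and its markers Myh11 and Lum had at most 14 and 15 counts in a library. Cardiomyocyte markers summed to 627 to 3618 CPM in parental libraries, to 788 to 959 CPM in Tbx1-/- libraries 1 to 3 and to 122 CPM in Tbx1-/- library 4. All 10 were tested and 0 called in edgeR, and the lines overlapped for each. All had a log2 difference below 0, and 7 an unadjusted p under 0.05, beside 11.9% of all genes. Of the 10 endoderm markers 8 were tested and 2 called lower without overlap, Foxa2 at -1.93 and Krt18 at -0.76 on the log2 scale (edgeR adjusted p = 0.0254 and 0.0133). Over all genes 0.67% were called lower, and 4.04% were lower without overlap. The endoderm sums overlapped, at 255 to 449 CPM and 238 to 275 CPM. Neural and pluripotency markers gave 0 calls in edgeR among 7 and 5 tested, with 1 lower in each list at an unadjusted p under 0.05. No marker of the first 4 lists was at 0 in all libraries. The part of such cells in the Tns1 difference was not tested.

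Promoter windows from RefSeq on GRCm38.p6, 250 bases before to 50 after a gene's start, were matched for 32 of the 40 genes. The windows of the 3 tensins are shown, with GC boxes (GGGCGG on either strand) in capitals. In each tensin every mutant library was above the parental range, though Tns1 alone passed the test. Lims1 also had every mutant library above the parental range. Its 3 windows are not shown and held 3, 0 and 0 GC boxes. The Tns1 window is at chr1:74124499-74124798 (minus strand), beyond the GENCODE M21 start of the gene, the Tns2 window at chr15:102102684-102102983 (plus strand) and the Tns3 window at chr11:8664486-8664785 (minus strand).
Tns1: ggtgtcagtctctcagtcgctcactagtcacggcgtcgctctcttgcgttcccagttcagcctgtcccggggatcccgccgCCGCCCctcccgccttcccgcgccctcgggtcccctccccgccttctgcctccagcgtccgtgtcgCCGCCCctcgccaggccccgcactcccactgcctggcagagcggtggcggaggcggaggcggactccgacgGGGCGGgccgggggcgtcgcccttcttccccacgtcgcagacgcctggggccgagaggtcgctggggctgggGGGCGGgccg
Tns2: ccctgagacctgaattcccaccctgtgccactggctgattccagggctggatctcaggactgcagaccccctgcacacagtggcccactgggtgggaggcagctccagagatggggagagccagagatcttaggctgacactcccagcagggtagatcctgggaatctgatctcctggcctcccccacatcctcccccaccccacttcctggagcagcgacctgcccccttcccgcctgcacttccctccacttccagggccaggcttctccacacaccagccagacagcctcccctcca
Tns3: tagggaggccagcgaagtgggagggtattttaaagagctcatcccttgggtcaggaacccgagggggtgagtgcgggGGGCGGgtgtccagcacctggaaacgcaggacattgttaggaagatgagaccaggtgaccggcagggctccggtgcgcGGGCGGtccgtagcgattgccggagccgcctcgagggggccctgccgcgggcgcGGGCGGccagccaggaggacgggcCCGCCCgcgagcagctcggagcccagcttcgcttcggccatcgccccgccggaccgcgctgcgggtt
Tns1 and Tns3 each held 4 GC boxes and Tns2 held none. A GC box was present in 64.1% of the 39 windows of the set and in 35.7% of all 32851 windows. Neither the T-box half-site GGTGTGA nor the TEAD motif GGAATG nor a CArG box, the site of serum response factor, occurred in the 3 tensin windows on either strand.

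Elsewhere in the set the T-box half-site occurred in 1 of 39 windows, that of Itga4, against 3.98% of all windows. The TEAD motif occurred in 6 of the 39, or 15.4%, against 14.7% of all windows. CArG boxes occurred in 3 of the 39, those of Vcl, Trip6 and Fermt2, against 1.63% of all windows. The T-box and CArG matches are shown with their flanks, motif in capitals, on the strand of the gene. These are the sites a reader would look for beside a T-box mutant and an actin-linked gene set.
Itga4, T-box half-site: tctgccagGGTGTGAgtccatgc
Vcl, CArG box: cactatgcCCTTATAAGGagcgcccc
Trip6, CArG box: ggtcgtctCCAAAATTGGggaggaag
Fermt2, CArG box: cttcatttCCATAAAAGGgcagcgct
The Itga4 site lies at chr2:79255253-79255275 and those of Vcl, Trip6 and Fermt2 at chr14:20929163-20929188, chr5:137314223-137314248 and chr14:45530252-45530277. None of these 4 genes passed the test between the lines, with log2 differences of 1.11 for Itga4, 0.01 for Vcl, -0.08 for Trip6 and 0.05 for Fermt2. A match is a description of letters in the window and not of binding.

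None of the other 8 activators and actin links was called, and their log2 differences ran from -0.28 for Fermt1 to 0.29 for Tln2. The 95% interval of Vcl ran from -1.14 to 1.15. Actn1, an alpha-actinin that crosslinks actin, had 518, 437, 434 and 429.8 CPM in parental libraries 1 to 4 and 413, 405, 393 and 334 CPM in Tbx1-/- libraries 1 to 4. All mutant libraries were below all parental ones, 1 of 37 genes in this direction beside 4.04% of all genes. The log2 difference of -0.23 ± 0.10 (SE) had an edgeR adjusted p of 0.368. Flna, filamin A, had 369 to 426 CPM in parental and 379 to 422 CPM in Tbx1-/- libraries and a log2 difference of 0.05, with a 95% interval of -0.15 to 0.25. Fermt2, the kindlin of most tissues, was at 96.1 to 140 CPM over the 8 libraries, and Fermt1, the epithelial kindlin, at 2.00 to 3.99 CPM.

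Talin 1 and talin 2 were expressed at similar levels. Tln2 had 136, 128, 128 and 140 CPM in parental libraries 1 to 4 and 141, 137, 168 and 208 CPM in Tbx1-/- libraries 1 to 4. Tbx1-/- libraries 3 and 4 were above every parental library, while 1 and 2 were at the parental level. The log2 difference was 0.29 ± 0.13 (SE, edgeR adjusted p = 0.390). Tln1 was at 146 to 161 CPM in parental and 146 to 189 CPM in Tbx1-/- libraries. The share of Tln2 in talin CPM was 45.8% to 47.4% in parental and 42.8% to 52.9% in Tbx1-/- libraries.

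**Figure D4:**
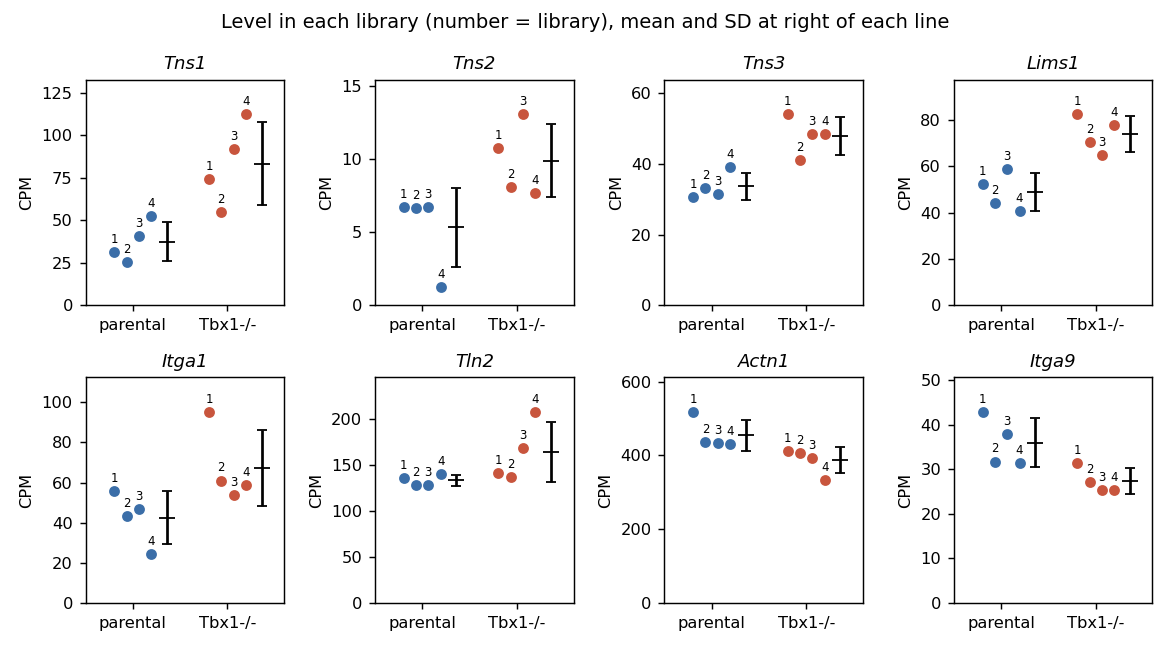
CPM on the TMM scale (vertical axes, from 0) in the 4 parental and 4 Tbx1-/- libraries, numbered, with mean and SD to the right of each line, for the members with an unadjusted p under 0.05 or no overlap between the lines, and for Itga9. Tns1, Tns2, Tns3 and Lims1 have all 4 mutant libraries above the parental ones, and Actn1 has all 4 below.

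No kinase or signalling adaptor passed the test. Ptk2, focal adhesion kinase, had 96.0, 96.0, 101 and 86.0 CPM in parental libraries 1 to 4 and 108, 88.5, 89.9 and 80.5 CPM in Tbx1-/- libraries 1 to 4. The lines overlapped fully, and the log2 difference of -0.05 ± 0.13 (SE) had a 95% interval of -0.33 to 0.23 (edgeR adjusted p = 0.937). Src and its substrate Bcar1 (p130Cas) had log2 differences of 0.35 and 0.30, and in both the highest library was Tbx1-/- library 4, at 77.3 and 89.1 CPM. Nedd9, a relative of p130Cas, had a lower mean in the mutant line, at 8.22 to 15.5 CPM in parental and 3.45 to 11.3 CPM in Tbx1-/- libraries, with a log2 difference of -0.68 and an interval of -1.53 to 0.18. Paxillin (Pxn) and its relative Hic-5 (Tgfb1i1) differed by 0.18 and 0.14. Cav1, the caveolin that lies with integrins in membrane rafts, had 45 counts in Tbx1-/- library 1 and 2 to 19 counts in the other 7, and fell below the filter.

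In the ILK, PINCH and parvin complex, the scaffold that joins beta chain tails to actin, Lims1 came nearest to the threshold after Tns1. Lims1, or PINCH-1 (chromosome 10, 58323466 to 58424691, plus strand), had 52.2, 44.0, 58.7 and 40.5 CPM in parental libraries 1 to 4 and 82.5, 70.4, 64.8 and 77.8 CPM in Tbx1-/- libraries 1 to 4. The lines did not overlap. The mean was 48.8 ± 8.23 CPM in parental and 73.9 ± 7.81 CPM in Tbx1-/- libraries (SD, n = 4), a log2 difference of 0.60 ± 0.16 (SE) with an edgeR adjusted p of 0.0805. It passed in 3 of 18 alternative analyses, at 0.0262 with DESeq2, 0.0487 with limma-voom and library quality weights and 0.0464 without the filter, a fit that called 1.64% of all genes. Parva, alpha-parvin, was at 44.5 to 64.7 CPM over the 8 libraries with a log2 difference of 0.02.

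Ilk, integrin-linked kinase, is listed at 0 counts in all 8 libraries. Of its annotated exonic bases in GENCODE M21, 89.7% are also exonic for Taf10 or Rrp8 on the other strand. The name of the table states forward-strand counting. Yet of 74 protein-coding genes with more than 80% of exonic bases shared in this way, 60, or 81.1%, had 0 counts in all libraries, against 27.2% of the 16436 with no shared base. No level of Ilk can be given from these counts. Vcl, vinculin, shares 25.5% of its exonic bases with Ap3m1 on the other strand and had only 7 to 43 counts per library. Of the 934 protein-coding genes with more than 20% and up to 80% of exonic bases shared, 17.8% had 0 counts in all libraries. That is fewer than among genes with no shared base. It is more than the 7.15% among the 4265 genes that share over 0 and up to 20%. Whether the shared bases bear on the level of Vcl was not tested. The other genes of the set shared at most 8.15%. These shares are taken over all exonic bases of a gene, while QuantSeq reads its 3′ end. Where the shared bases lie was not examined, so a small share does not show that a count is unaffected.

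The zyxin and VASP group, which acts on actin filaments under tension, gave no call. Lpp had 341, 321, 296 and 333 CPM in parental libraries 1 to 4 and 342, 280, 284 and 316 CPM in Tbx1-/- libraries 1 to 4. The lines overlapped, with a log2 difference of -0.08 ± 0.10 (SE, 95% interval -0.30 to 0.14) and an edgeR adjusted p of 0.824. Trip6 and Vasp differed by -0.08 and -0.01, and Zyx, the tension-sensitive founder of the group, by 0.30 with an interval of -0.08 to 0.68.

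A wider list of 87 focal adhesion genes, holding the leukocyte integrins, further kinases, GTPases and LIM proteins, had 74 tested genes. In edgeR 0 of these were called, and 9 had an unadjusted p under 0.05, 5 higher and 4 lower. That is 12.2% of the 74 with an unadjusted p under 0.05, beside 11.9% of all genes tested, and 0 calls beside 1.42%. DESeq2 called 2, Fyn and Fhl1, limma-voom 0 and limma-voom with library quality weights 1, Fyn. DESeq2 called 3.05% of all genes, limma-voom 1.9% and limma-voom with weights 2.01%. The median log2 difference of the 74 was -0.02. Fyn, a Src family kinase named here after its values were seen, was at 59.5 ± 7.55 CPM in parental and 88.7 ± 11.7 CPM in Tbx1-/- libraries (SD, n = 4), with a log2 difference of 0.57 ± 0.15 (SE) and an edgeR adjusted p of 0.0679. Nexn, also named after its values were seen, went the other way, from 164 ± 65.8 to 86.0 ± 27.1 CPM (SD, n = 4). Its log2 difference was -0.93 ± 0.24 (SE, edgeR adjusted p = 0.0621), and the lines overlapped. Fhl1 was lower too, at -0.77 (edgeR adjusted p = 0.110). The leukocyte beta chain Itgb2 and the epithelial chains Itgb4 and Itgb6 were among the 13 genes below the filter.

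Of 30 genes for integrin ligands, 28 were tested, and 3 were called higher and 1 lower, beside 0.745% and 0.67% of all genes. On the log2 scale the fibrillar collagen chains Col3a1 and Col1a2 rose by 2.29 ± 0.21 and 0.93 ± 0.14 (SE), and Postn, periostin, by 2.01 ± 0.38. Without parental library 3 Postn was at 1.83 and no longer called (edgeR adjusted p = 0.0515). The collagen and periostin genes were known to rise from earlier results on these libraries. Tgfb1, whose latent form is a ligand of alpha v integrins, had 24.5 ± 7.73 CPM in parental and 9.92 ± 2.06 CPM in Tbx1-/- libraries (SD, n = 4). The difference was -1.29 ± 0.29 (SE) on the log2 scale, and edgeR gave it an adjusted p of 0.0330. In 9 of 18 alternative analyses Tgfb1 was no longer called, 6 of them fits without a single library, and the adjusted p reached 0.153. Fn1, fibronectin, named after its values were seen, was at 577 ± 108 and 758 ± 138 CPM (SD, n = 4) and did not pass (log2 difference 0.39 ± 0.14, SE, edgeR adjusted p = 0.217). Lama5, named in the same way, lay nearer the threshold and was lower without overlap, at -0.95 ± 0.24 (SE, edgeR adjusted p = 0.0527). Col1a1 was at 0.11 (edgeR adjusted p = 0.865). Of the 28 tested genes, 5 were higher and 4 lower without overlap between the lines, beside 3.49% and 4.04% of all genes.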

How the data were processed

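RNA of 4 parental and 4 Tbx1-/- cultures was made into QuantSeq libraries, per the labels' protocols. The authors deposited whole-number counts per gene, without normalization or pooling. STAR, featureCounts and build mm10 are named in the submitters' processing notes; the annotation is not given in the sources used here. Of 55487 rows, 55227 received a symbol from GENCODE M21 (GRCm38), and 54435 matched it with version. Counts were filtered with filterByExpr (13280 genes, 99.5% of counts), scaled by TMM and tested with edgeR 4.0.16 in R 4.3.3 by the quasi-likelihood F test, line as the only term, Benjamini-Hochberg adjustment over all genes and a threshold of 0.05. DESeq2 1.42.0 and limma 3.58.1 were alternatives, with other scalings, filters, thinning, a replicate block and each library left out. SEs derive from the F statistic. The floor was 3 counts, and floors and counts carry counting error only. The code was tested on simulated data.

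The gene set, the lists and the tests were chosen with earlier results of these data known. Values in every library are given for members with an adjusted or unadjusted p under 0.05 or no overlap between the lines, and for the highest member of each role; values of Itga4, Itga9 and Itgb3 were added after they were seen. No pair of libraries within a line agreed within sampling noise (chi-square per degree of freedom 7.04 to 24.2 in 12 pairs).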

Additional observations from a re-analysis of the deposited data

Results flagged for a closer look

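In each line the highest or lowest of 4 libraries was compared with the gap that Dixon's test allows, for the CPM of the 37 tested genes. Of 74 groups 5 had such a library, and chance gives about 5% of groups. Itga5 was at 18.7 CPM in Tbx1-/- library 4, against 4.90 to 6.75 CPM in the other 3. Itgb3 was at 2.86 CPM in Tbx1-/- library 1, against 9.07 to 9.15 CPM. Tns2 was at 1.26 CPM in parental library 4, against 6.64 to 6.73 CPM. Itgb1 and Actn1 were high in parental library 1, at 418 CPM against 350.4 to 357 CPM and at 518 CPM against 429.8 to 437 CPM.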

How the results depend on the processing

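The 1 call in the set became 3 without the filter on low counts (Itga1, Lims1 and Tns1), and 2 with DESeq2 and with limma-voom and library quality weights (Lims1 and Tns1); leaving out single libraries gave 0 to 1. Calls over all genes, 188, became 439 without the filter and 405 with DESeq2, and 103 to 235 when single libraries were left out, with fewest without parental library 2 (103), parental library 3 (104) and Tbx1-/- library 3 (116). The 0 calls in the wider list became 1 with the gene of largest share left out of the totals, 4 without the filter, 2 with DESeq2, 1 with limma-voom and quality weights, 1 after thinning, 2 with the replicate block, and 0 to 2 when single libraries were left out. Causes were not tested. Tbx1 kept its call in all 18 alternatives, at -6.28 to -4.74. Leaving out single libraries moved Itga6 between -0.11 and 0.40 and Ptk2 between -0.14 and 0.00695 on the log2 scale, each across 0. Same-numbered libraries deviated together at -0.03 to 0.10 (mean 0.03), against a mean of -0.01 for other pairs, and 3 of 8 correlated best with their own number. These values over all genes show no general pairing by number, but they cannot exclude it for single genes. The replicate block gave 234 calls over all genes, 172 of them among the 188, and 1 in the set, Tns1. With the block Tns1 was at 1.16 ± 0.16 (SE, edgeR adjusted p = 0.000512), against an SE of 0.23 and an adjusted p of 0.0124 in the main fit. Depth limits genes under about 10 CPM, whose intervals reach 2-fold.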
